A study of Mus musculus with 12 samples.

Results

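Metallothioneins and the genes around their zinc response were read in whole bone marrow of mice lacking Fanconi anemia genes. The 5 genes were the metallothioneins Mt1, Mt2 and Mt3, the metal-responsive transcription factor Mtf1 and the zinc exporter Slc30a1. They were found as the probe sets whose only gene symbol was one of these names, which gave 11 of 34945 single-symbol probe sets and 5 of 18193 genes. The set was chosen by the measured values of Mt2, which showed the largest increase of any gene tested in Fancc-/- over wild-type marrow and was also higher in the double knockout. Those differences, and every other difference of the 5 genes in these contrasts, are therefore given as descriptions with no test.

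The arrays measured total RNA of unfractionated, uncultured marrow cells flushed from tibia and femur, 1 Affymetrix array per mouse and 3 mice per group. The groups were Fancc-/- mice, Fancg-/- mice, double-knockout mice lacking both genes, and wild-type C57Bl/6 controls. The proteins of both genes belong to the core complex of the Fanconi anemia pathway, known for its role in repairing DNA crosslinks. The alleles, the background strain of the knockouts, and the age and sex of the mice are not given in the sources used here. Since the marrow was not fractionated, fewer cells of a type and less RNA per cell cannot be told apart. All values are log2 signals, so a difference of 1 is a doubling, and levels of different probe sets are not compared with each other.

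Metallothioneins are small cysteine-rich proteins that bind zinc and copper and buffer free metal ions. In mammals, free zinc activates the zinc-finger factor MTF1, which binds metal response elements in the promoters of Mt1, Mt2 and the exporter gene Slc30a1. Metallothionein genes also respond to glucocorticoids, inflammatory cytokines and oxidants. In the RefSeq annotation (GRCm38.p6), Mt3, Mt2 and Mt1 lie close together on chromosome 8.

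Upstream sequence is shown for Mt2, Mt1 and Slc30a1, the classical MTF1 targets of the set. Whether this sequence bears on their levels in the genotypes was not tested. The 250 bases before the start in the RefSeq promoter table (GRCm38.p6) were searched for the core of the metal response element, as TGCACNC and TGCGCNC on both strands, and capitals mark the matches. Mt2 is given over this whole window, chr8:94172368-94172617. The RefSeq gene records of Mt1 and Slc30a1 begin inside their windows, so only the 29 bases around each match are given, chr8:94179055-94179083 and chr1:191906727-191906755, all on the plus strand.
Mt2: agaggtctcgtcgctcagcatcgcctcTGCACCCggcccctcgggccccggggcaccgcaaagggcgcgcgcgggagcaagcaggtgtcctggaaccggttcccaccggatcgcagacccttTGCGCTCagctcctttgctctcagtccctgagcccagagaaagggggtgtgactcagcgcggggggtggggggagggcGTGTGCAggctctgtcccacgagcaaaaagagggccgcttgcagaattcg
Mt1: cggtcccgctgTGCACACtggcgctccag
Slc30a1: acgggggttccGAGTGCAaagcaaagttt

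Mt2 held 3 such matches, beginning 223, 128 and 50 bases before the start, and Mt1 held 1 at 23 bases and Slc30a1 held 1 at 43 bases before it. Mtf1 and Mt3 had 0 in the same window. Of 32851 promoter windows of this length in the table, 21.4% held at least 1 match and 1.26% held at least 3. The core of the antioxidant response element, searched as TGACNNNGC on both strands, occurred once in Mt2 (TGACTCAGC, 79 bases before the start) and once in Slc30a1 (GCCTTGTCA, 82 bases before it), against 10.2% of windows with at least 1 match. The 2 motifs did not overlap in these windows. A TATA box, searched as TATAAA on both strands, had 0 matches in the windows of Mt2, Mt1 and Slc30a1, where 12.4% of windows held at least 1. The starts are those of the table and may not be the starts most used in marrow, so the distances hold for these starts and matches outside the windows were not counted. A match describes letters and was not measured as a binding site, and no match says only that these letters are absent from this window.

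Across the series, array medians lay between 4.79 and 4.87, and pairs of arrays correlated at 0.954 to 0.993 within groups and 0.945 to 0.989 between groups over the genes tested. Fancg was at 5.61 to 5.83 in the double knockout, 6.00 to 6.64 in Fancg-/- and 6.80 to 6.86 in wild type. In Fancc-/- it was at 6.43 to 6.72, also below every wild-type array and overlapping with Fancg-/-. On its other probe set Fancc-/- (6.68 to 6.78) lay between Fancg-/- (5.92 to 6.67) and wild type (6.82 to 6.92). A lower Fancg signal was therefore not particular to the groups lacking this gene. Fancc, on the brightest of its 3 probe sets, was not lower in Fancc-/- (5.96 to 6.17) than in wild type (5.90 to 6.18). Where these probe sets lie relative to the deleted parts is not given in the sources used here, so they do not settle the genotype. The RNA of X inactivation, Xist, was at 5.99 to 7.39 in the double knockout against 11.30 to 12.23 in wild type, and at 11.19 to 12.13 in Fancc-/-. The Y-linked Eif2s3y was at 8.81 to 9.35 in the double knockout and 2.89 to 3.20 in wild type. In Fancg-/-, Eif2s3y was at 7.64, 9.09 and 5.78 and Xist at 11.31, 7.34 and 10.75, so replicates 1 and 3 showed both RNAs. Whether these 2 arrays each hold the RNA of 1 mouse, as the labels have it, cannot be settled from the values, and n = 3 for Fancg-/- rests on the labels. Genotype cannot be told apart from sex in the double knockout against wild type or against Fancc-/-, where Eif2s3y was at 2.94 to 3.30. Fancg-/- against wild type is mixed with sex as well, since all 3 Fancg-/- arrays lay above the wild-type arrays for Eif2s3y. So is the double knockout against Fancg-/-, where Fancg-/- replicates 1 and 3 lay above every double-knockout array for Xist.

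Mt2, an isoform made in most tissues and strongly induced by metals, showed the widest span of the set. Its log2 signal was 11.44, 10.24 and 11.57 in Fancc-/-, 9.27, 9.38 and 9.37 in Fancg-/-, 10.83, 10.74 and 10.97 in the double knockout, and 7.92, 8.56 and 8.32 in wild type. Every knockout array lay above every wild-type array, and every Fancg-/- array lay below every array of the other 2 knockout groups. Group means were 11.08 ± 0.73 in Fancc-/-, 9.34 ± 0.06 in Fancg-/-, 10.85 ± 0.12 in the double knockout and 8.27 ± 0.33 in wild type (SD, n = 3 each).

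The values that chose Mt2 were its differences of 2.81 ± 0.28 (SE) in Fancc-/- against wild type, a 7.02-fold higher signal, and of 2.58 ± 0.28 in the double knockout against wild type, 5.98-fold. With 11908 genes ordered by signed difference, so that increases come first, it ranked first in Fancc-/-, and the next gene, Slc15a2, stood at 2.48. In the double knockout it ranked 3 of 11908 in the same order. Fancc-/- replicate 2 was the low array of its group, and without it the difference in Fancc-/- was 3.23.

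Mt1, the partner isoform that is usually induced together with Mt2, was read by 2 probe sets. On the brighter, 1422557_s_at, the signal was 10.99, 10.21 and 11.51 in Fancc-/-, 9.71, 10.10 and 9.89 in Fancg-/-, 10.56, 10.91 and 11.08 in the double knockout, and 9.34, 9.50 and 9.38 in wild type. No knockout array fell into the wild-type range there, and the order of the groups was that of Mt2. Differences against wild type were 1.50 ± 0.26 in Fancc-/- (2.82-fold), 0.49 ± 0.26 for Fancg-/- and 1.44 ± 0.26 for the double knockout (2.72-fold).

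The dimmer Mt1 probe set, 1451612_at, gave 7.28, 6.17 and 6.66 in Fancc-/-, 5.65, 5.88 and 5.93 in Fancg-/-, 6.00, 5.96 and 6.09 in the double knockout, and 5.70, 5.35 and 5.77 in wild type. Fancc-/- was again the highest group, but the double knockout stood only 0.41 above wild type, and Fancg-/- overlapped it. The double knockout was below every Fancc-/- array on this probe set (difference -0.69) while the 2 groups overlapped on the brighter one (-0.05 ± 0.26). In Affymetrix naming the suffix _s_at marks probes shared by several transcripts, so the brighter probe set may also read a related RNA, and the 2 Mt1 probe sets lay closer to each other in their difference for Fancc-/- (1.50 and 1.10) than for the double knockout (1.44 and 0.41).

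**Figure D1:**
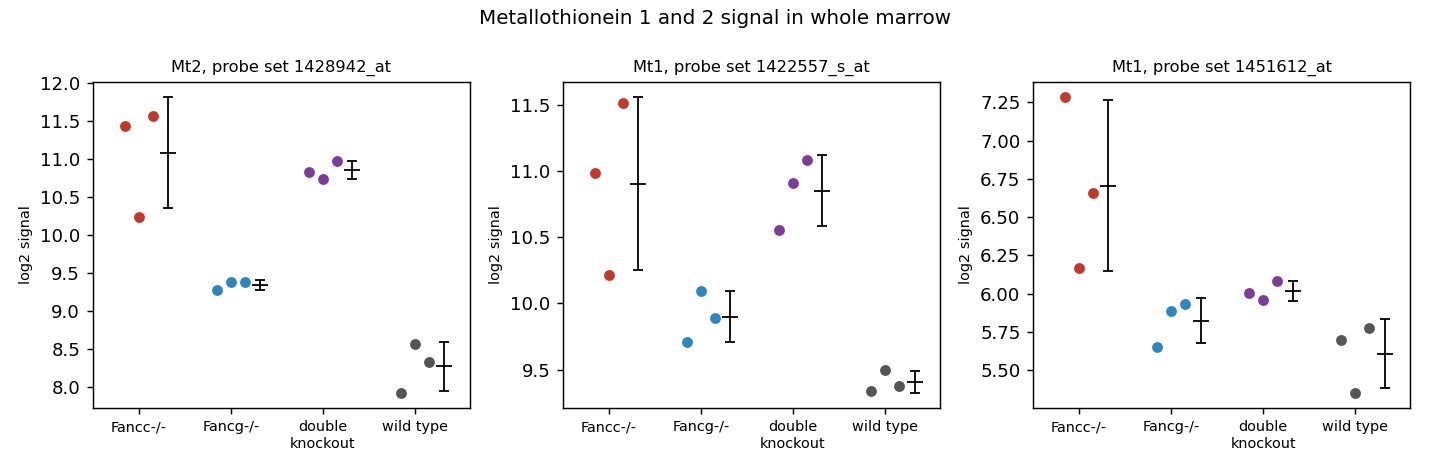
Log2 signal of Mt2 and of both Mt1 probe sets on each of the 12 arrays, by genotype on the x axis, with the vertical axis not starting at 0. Points are mice in the order of their replicate numbers and the bar beside them is the mean ± SD (n = 3). Mt2 lies at 10.24 or above in Fancc-/- and in the double knockout, at 9.27 to 9.38 in Fancg-/- and at 8.56 or below in wild type.

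Deviations from the group means were also compared between the isoforms. Mt1 and Mt2 lay on the same side of their group means on 9 of 12 arrays. In Fancc-/- replicate 2, the low array of its group, Mt1 was 0.69 and Mt2 0.84 below the group mean (deviations of -0.69 and -0.84), and in replicate 3 they were 0.61 and 0.49 above it. The second Mt1 probe set sided with Mt2 on 9 of 12 arrays too, and with the first Mt1 probe set on 6 of 12.

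Fancg-/- against wild type is the contrast that the choice of Mt2 did not use, although it shares the wild-type arrays with the 2 contrasts that did. Mt2 was 1.07 ± 0.28 (SE) higher in Fancg-/-, 2.10-fold, with 3 of 3 arrays above every wild-type array. This difference did not pass the test (limma, unadjusted p = 0.00271, adjusted p = 0.302 over 11908 genes). Of the 5 genes, 0 passed with limma at an adjusted p below 0.05 and 1 had an unadjusted p below 0.05, beside 0.0504% of all genes called and 834 with an unadjusted p below 0.05. The remaining differences were 0.49 for Mt1 (limma adjusted p = 0.774), 0.31 for Mtf1 (0.912), 0.13 for Mt3 (0.929) and 0.04 for Slc30a1 (0.991).

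Whether Mt2 passed in Fancg-/- changed with the fit. In a fit of the Fancg-/- and wild-type arrays alone it passed (1.07 ± 0.16, limma adjusted p = 0.0260, with 72 genes called), as it did with array weights (1.00 ± 0.21, adjusted p = 0.0278, with 277 genes called). It also passed without Fancc-/- replicate 2 (1.07 ± 0.15, adjusted p = 0.0390), an array that does not enter the difference itself but sits 0.84 below its group mean for Mt2. With Xist as a covariate the difference was 1.04 ± 0.38 (adjusted p = 1).

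Without a test, the count of genes whose 3 Fancg-/- arrays all lay above the wild-type arrays was 3 of 5 (Mt1, Mt2 and Mtf1), where 8.67% of all genes tested did, and the count below them was 0 of 5, where 8.61% did. In the contrasts the choice used, the corresponding counts were 2 of 5 in Fancc-/- (Mt1 and Mt2; 11.1% of all genes, with 0 lower where 13.1% were) and 4 of 5 in the double knockout (all but Mt3; 12.5% of all genes, with 0 lower where 16.9% were), and nothing is read from them. These counts rest on 1 probe set per gene, and for Mtf1 other probe sets did not lie above wild type. Over all 11 probe sets, the number above wild type without overlap was 3 for Fancc-/-, 4 for Fancg-/- and 6 for the double knockout, with 0 below. Only 9 of these 11 were bright enough for the test. No share over all probe sets was computed beside these counts, so nothing is read from them. The median difference of the 5 genes from wild type was 0.28 for Fancc-/- (all genes tested -0.01), 0.31 for Fancg-/- (all genes 0.01) and 0.92 for the double knockout (all genes -0.01). Over the 11 probe sets it was lower, at 0.13 for Fancc-/-, 0.13 for Fancg-/- and 0.41 for the double knockout.

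Slc30a1, which carries zinc out of the cell across the plasma membrane, did not follow Mt2 through the genotypes. On the brighter probe set, 1436164_at, it was at 7.28, 7.07 and 6.87 in Fancc-/-, 7.07, 7.09 and 6.98 in Fancg-/-, 7.28, 8.02 and 8.47 in the double knockout, and 6.91, 7.15 and 6.95 in wild type. Fancc-/- and Fancg-/- overlapped with wild type, while the double knockout lay above it, with replicate 1 only just outside. The difference in the double knockout was 0.92 ± 0.24, or 1.90-fold, and it was 0.07 ± 0.24 in Fancc-/-, the group with the highest Mt2.

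The second Slc30a1 probe set, 1422786_at, gave 6.16, 6.24 and 6.62 in Fancc-/-, 6.60, 6.64 and 6.68 in Fancg-/-, 6.88, 7.49 and 7.15 in the double knockout, and 6.25, 6.40 and 6.45 in wild type. It again placed all double-knockout arrays on top, 0.81 above wild type, and here all Fancg-/- arrays also lay above the wild-type arrays, with a difference of means of 0.27 (limma adjusted p = 0.903 with every probe set tested on its own). Against the single knockouts the double knockout was higher by 0.85 ± 0.24 (Fancc-/-) and 0.88 ± 0.24 (Fancg-/-) on the brighter probe set, without overlap on either probe set.

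Mtf1, the zinc sensor that switches metallothionein genes on, had 5 probe sets that did not give 1 answer. On the brightest, 1429170_a_at, it was at 7.44, 7.79 and 8.34 in Fancc-/-, 8.15, 7.91 and 7.86 in Fancg-/-, 8.09, 8.85 and 8.74 in the double knockout, and 7.46, 7.76 and 7.77 in wild type. The double knockout and Fancg-/- both lay above every wild-type array there, with differences of means of 0.90 ± 0.24 and 0.31 ± 0.24.

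Probe set 1418333_at read 6.93, 7.02 and 6.82 in Fancc-/-, 6.77, 7.01 and 6.77 in Fancg-/-, 6.79, 6.24 and 6.47 in the double knockout, and 6.68, 6.91 and 6.85 in wild type. Probe set 1428979_at read 6.43, 7.00 and 6.30 in Fancc-/-, 6.54, 6.74 and 6.74 in Fancg-/-, 6.67, 5.94 and 6.01 in the double knockout and 6.45, 6.79 and 6.69 in wild type. On both, double-knockout replicates 2 and 3 were below every wild-type array and replicate 1 was not, giving differences of -0.31 and -0.44, opposite in sign to the brightest probe set. The other 2 Mtf1 probe sets, 1440414_at and 1452990_at, stayed between 3.50 and 4.49 on all arrays and did not pass the filter on dim signals. With all 5 probe sets averaged, the double-knockout difference of Mtf1 was -0.01 ± 0.09, so no direction is given for this gene.

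Mt3, the isoform known from brain, was dim and nearly flat. It was at 5.42, 5.24 and 5.65 in Fancc-/-, 5.18, 5.27 and 5.42 in Fancg-/-, 5.18, 5.16 and 5.14 in the double knockout, and 5.16, 5.07 and 5.26 in wild type. The difference in Fancc-/- was 0.28 ± 0.12, with overlap, and in the double knockout -0.002 ± 0.12.

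**Figure D2:**
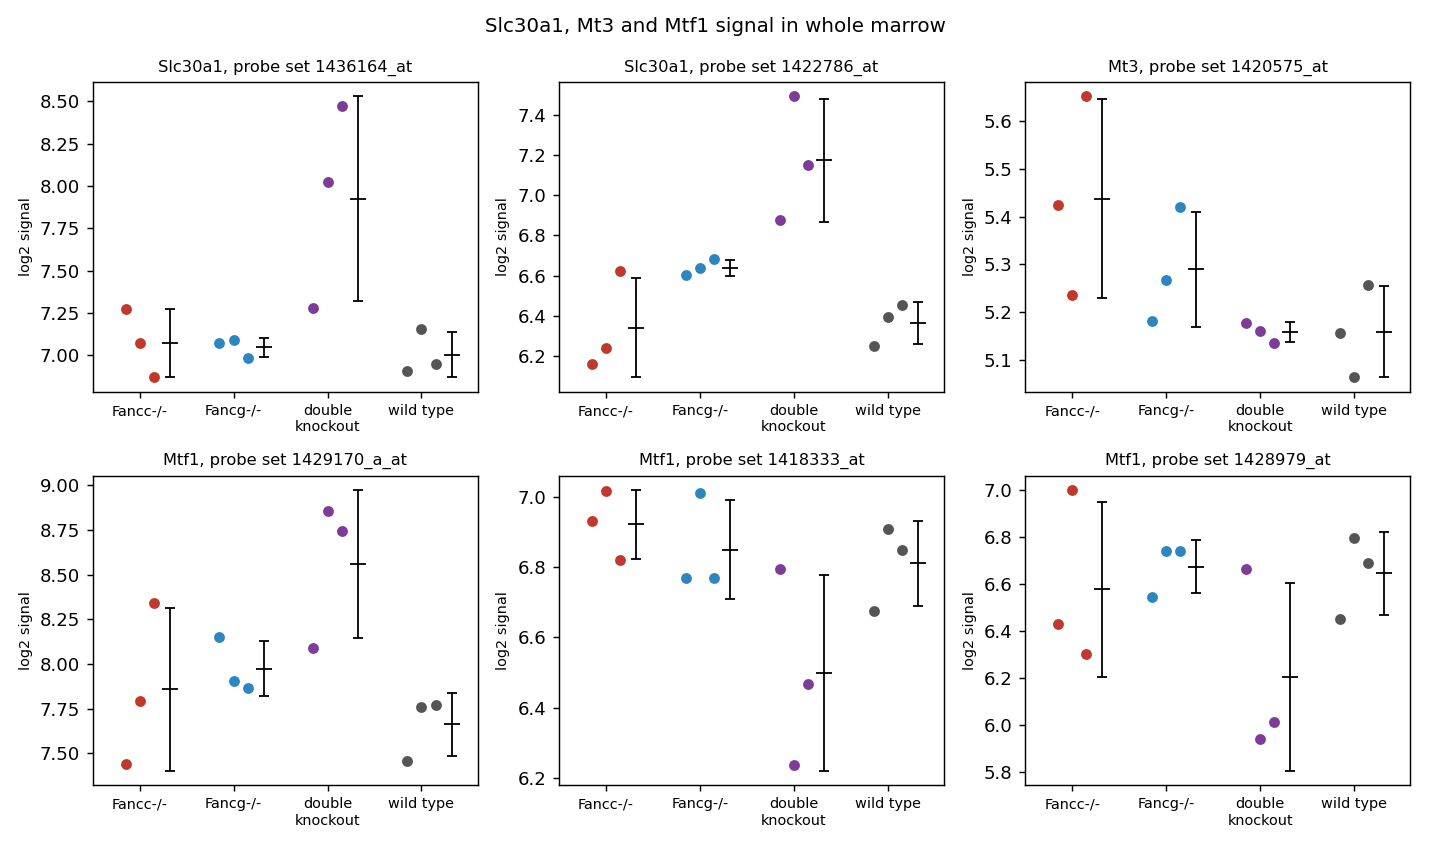
Log2 signal of both Slc30a1 probe sets, the Mt3 probe set and the 3 brighter Mtf1 probe sets on each of the 12 arrays, by genotype on the x axis; points are mice, bars are mean ± SD (n = 3), and the vertical axes differ and do not start at 0. Slc30a1 is highest in the double knockout on both probe sets, while the Mtf1 probe sets split, with replicates 2 and 3 of the double knockout high on 1429170_a_at and low on the other 2.

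Set against the single knockouts, the double knockout overlapped with Fancc-/- for Mt2 and lay above Fancg-/-. The Mt2 difference was -0.23 ± 0.28 against Fancc-/-, with overlapping arrays, and 1.51 ± 0.28 against Fancg-/-, without overlap. Of the 5 genes, 1 was higher (Slc30a1) and 1 lower (Mt3) than Fancc-/- without overlap, where 8.68% and 9.1% of all genes were. Against Fancg-/-, 3 were higher (Mt1, Mt2 and Slc30a1) and 1 lower (Mt3), where 8.87% and 10.5% of all genes were. These contrasts reuse the arrays that chose Mt2, are mixed with sex as described, and carry no test here.

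The genes whose signal ran most like Mt2 over the 12 arrays are described by Pearson's r, with no test, since the arrays share genotype groups and the genes were picked as the highest of all. Nckap1, a subunit of the WAVE complex that drives actin branching, came first at r = 0.974, and among all tested genes Mt1 was the second at 0.966. Phlpp2, a phosphatase acting on Akt (0.938), Bex4 (0.934), Tab3, an adaptor of the kinase TAK1 (0.929), and Gstm5, a glutathione transferase (0.929), followed. The r with Mt2 was 0.491 for Mtf1, 0.462 for Mt3 and 0.443 for Slc30a1.

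Nckap1 was at 7.16, 6.74 and 7.47 in Fancc-/-, 6.38, 6.42 and 6.41 in Fancg-/-, 7.14, 7.02 and 7.15 in the double knockout, and 6.08, 6.24 and 5.84 in wild type. As with Mt2, Fancc-/- replicate 2 was the low array of its group and the Fancg-/- arrays formed a tight step above wild type. After group means were removed, r with Mt2 was 0.839 for Mt1, 0.606 for Mt3, 0.212 for Mtf1 and 0.113 for Slc30a1. By that measure the genes outside the set with the highest r were Ccdc40 (0.909), Phlda2 (0.889), Shcbp1l (0.878), Aspa (0.876) and Ankrd23 (0.862), whose group means differed from wild type by 0.56 at most.

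**Figure D3:**
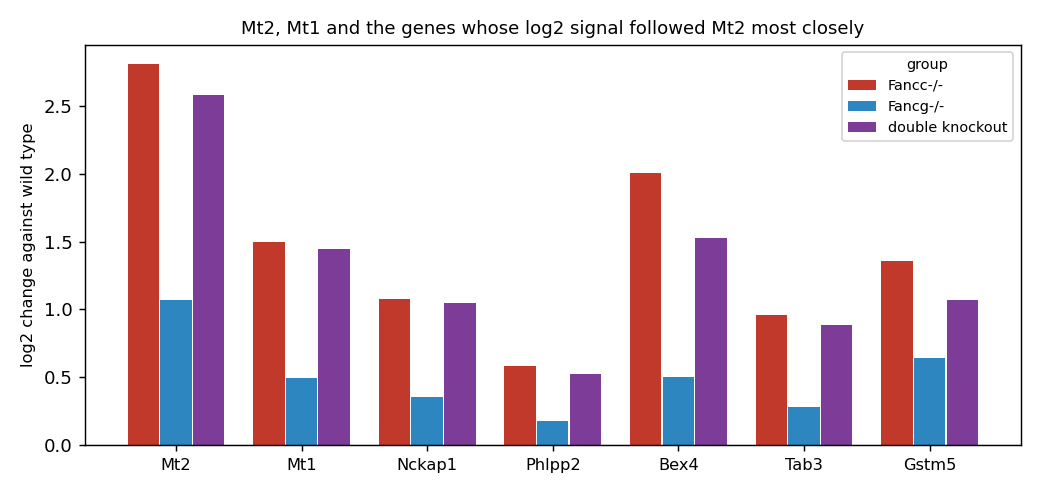
Difference in mean log2 signal against wild type (vertical axis) of Mt2, Mt1 and the 5 genes whose signal followed Mt2 most closely over 12 arrays, in Fancc-/-, Fancg-/- and double-knockout marrow (3 mice each; bars are differences of group means). In each gene the Fancg-/- bar is the shortest and the Fancc-/- bar the tallest, from 2.81 for Mt2 to 0.58 for Phlpp2.

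Zinc and copper transporters outside the set were tested in all contrasts, from lists of ZnT exporters, ZIP importers and copper-handling genes. Of 35 listed genes, 30 were bright enough to test. In Fancc-/- against wild type 1 fell and 0 rose, with 6 at an unadjusted p below 0.05 by limma, where 4.53% of all genes were called (2.36% fell) and 2352 of 11908 had an unadjusted p below 0.05. The median difference over these 30 genes was 0.02, beside -0.01 over all genes.

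The gene that fell in Fancc-/- was Slc30a4, a ZnT exporter that loads zinc into vesicles. Its signal was 5.36, 5.41 and 5.68 in Fancc-/- and 6.44, 6.08 and 5.98 in wild type, and the groups did not overlap. The difference was -0.68 ± 0.17 (SE; limma adjusted p = 0.0462). This call is fragile, since it held in 3 of 12 fits that each left out 1 array, with adjusted p up to 0.139.

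In Fancg-/- and in the double knockout, 0 of the 30 genes passed, with 3 and 7 at an unadjusted p below 0.05 by limma, where 0.0504% and 5.28% of all genes were called and 834 and 2876 of 11908 had an unadjusted p below 0.05. Slc39a8, a ZIP importer of zinc and manganese, had the smallest p of the importers in both single knockouts and read 6.86 ± 0.52 in Fancc-/-, 6.63 ± 0.12 in Fancg-/-, 6.84 ± 0.27 in the double knockout and 6.03 ± 0.28 in wild type. Its differences were 0.83, 0.60 and 0.81 (limma adjusted p = 0.0778, 0.630 and 0.0695). Slc39a9 (-0.63, adjusted p = 0.0600) and the exporter Slc30a5 (-0.49, adjusted p = 0.0731) had the smallest p of their lists in the double knockout, and Slc30a4 was at -0.52 in Fancg-/- (adjusted p = 0.464).

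Among copper genes, the smallest p belonged to Commd1, a regulator of copper export, in Fancc-/- (-0.53, limma adjusted p = 0.0982). In Fancg-/- it belonged to Cp, the plasma ferroxidase ceruloplasmin (0.91, adjusted p = 0.553), and in the double knockout to Slc31a1, the copper importer (0.53, adjusted p = 0.109). Of the same 30 genes, 0 passed in the double knockout against Fancc-/- or Fancg-/- (7 and 4 at an unadjusted p below 0.05 by limma), where 0.0084% and 0% of all genes were called and 2345 and 1714 of 11908 had an unadjusted p below 0.05.

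**Figure D4:**
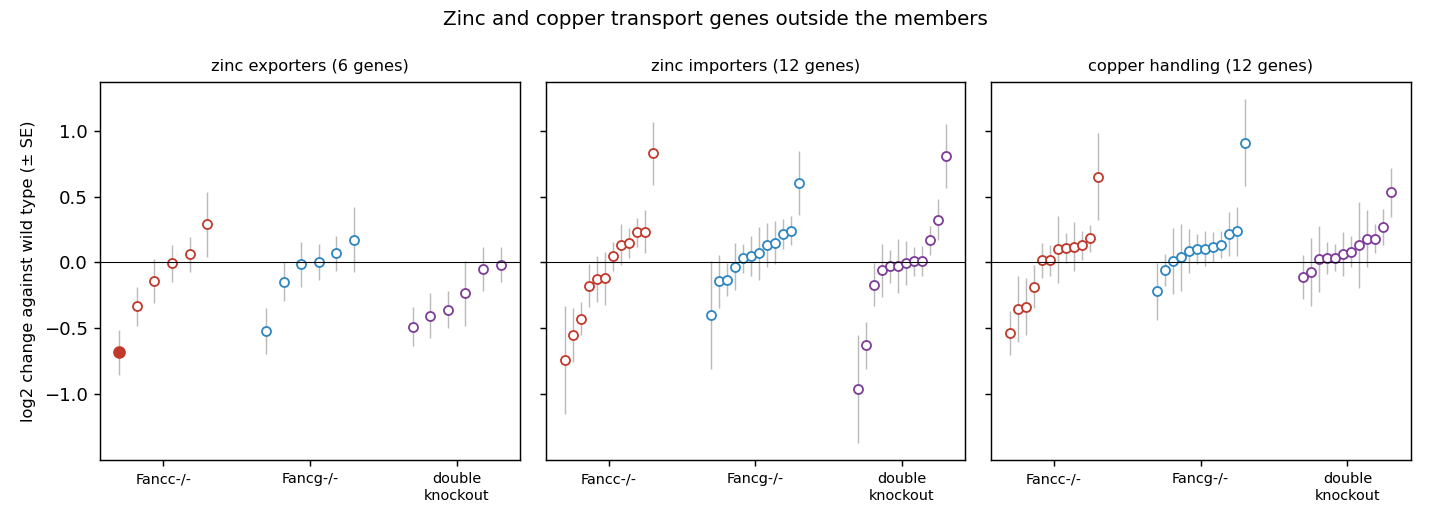
Log2 difference against wild type (vertical axis, ± SE) of each tested zinc exporter, zinc importer and copper-handling gene in Fancc-/-, Fancg-/- and double-knockout marrow (3 mice each); filled points passed limma at an adjusted p below 0.05 and open points did not. The only filled point is Slc30a4 in Fancc-/- at -0.68, and Slc39a8 is the highest importer in each group, at 0.83, 0.60 and 0.81.

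Other stimuli known to raise metallothionein genes were followed through their own target genes. Of 10 metal and oxidant stress genes, Gclm, a subunit of the first enzyme of glutathione synthesis, rose in Fancc-/- (1.15 ± 0.19 SE, limma adjusted p = 0.00707), as 1 of 10, where 2.18% of all genes rose. In the double knockout 3 of 10 rose, where 2.27% of all genes did. They were Slc7a11, the cystine importer (2.38 ± 0.43, adjusted p = 0.0174), Txnrd1, thioredoxin reductase (0.46 ± 0.10, adjusted p = 0.0279), and Gclm (0.73 ± 0.19, adjusted p = 0.0495). In Fancg-/- 0 of 10 passed. An unadjusted p below 0.05 by limma was found for 3 (Fancc-/-), 1 (Fancg-/-) and 7 (double knockout) of the 10. Hmox1 did not pass, at 0.82 (Fancc-/-), 0.58 (Fancg-/-) and 1.33 (double knockout), with limma adjusted p = 0.263, 0.875 and 0.0630. All its knockout arrays (8.06 or above) lay above its wild-type arrays (7.92 or below). Hspa1a and Hspa1b went the other way in the double knockout (-2.37 and -2.52, limma adjusted p = 0.129 and 0.0830). Both overlapped with wild type.

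Slc7a11 was at 7.27, 8.25 and 8.59 in the double knockout and 5.04, 6.25 and 5.68 in wild type, without overlap. As with Slc30a1, replicate 1 was the lowest double-knockout array. Its level in Fancc-/-, 5.30, 5.11 and 5.38, was within the wild-type range. The Slc7a11 and Txnrd1 calls held in 7 of 12 fits that left out 1 array each, and were lost without any 1 wild-type array or without double-knockout replicate 2 or 3 (adjusted p up to 0.0884 and 0.122), and the Gclm call in the double knockout held in 1 of 12 (up to 0.159). With Xist as a covariate, 0 of all genes tested, these 3 included, were called in the double knockout against wild type. Xist itself separates these 2 groups (5.99 to 7.39 against 11.30 to 12.23), so this fit cannot decide whether the calls hold.

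Of 13 glucocorticoid response genes, 0 passed the test in either single knockout (1 in Fancc-/- and 0 in Fancg-/- at an unadjusted p below 0.05 by limma). The 1 in Fancc-/- was Klf9, with a difference of 1.30 ± 0.36 (limma adjusted p = 0.0620). It was at 9.92, 10.29 and 11.61 in Fancc-/- and 8.80, 9.65 and 9.47 in wild type, without overlap. In Fancg-/- Klf9 differed by 0.31 (limma adjusted p = 0.954). In the double knockout 1 rose and 2 fell of 13, where 2.27% of all genes rose and 3.01% fell. Klf9, a transcription factor, was higher (1.80 ± 0.36, limma adjusted p = 0.0207), and Cebpd (-0.95 ± 0.21, adjusted p = 0.0308) and the phosphatase gene Dusp1 (-1.54 ± 0.37, adjusted p = 0.0374) were lower. The Klf9 and Cebpd calls held in 7 of 12 fits that left out 1 array, and the Dusp1 call in 5 of 12. Dusp1 was at 12.35, 10.44 and 10.67 in the double knockout and 12.52, 12.65 and 12.91 in wild type. Replicate 1 of the double knockout thus lay close to wild type.

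Fkbp5 and Tsc22d3, strong targets of glucocorticoids, did not pass in any group, but 1 Fancc-/- array stood apart. Fkbp5 was at 8.77, 9.04 and 10.88 in Fancc-/-, 8.90, 8.92 and 9.03 in Fancg-/-, 9.91, 8.40 and 8.13 in the double knockout, and 9.12, 9.16 and 9.05 in wild type. Its differences were 0.45 (Fancc-/-), -0.16 (Fancg-/-) and -0.30 (double knockout), with limma adjusted p = 0.668, 0.987 and 0.779. Tsc22d3 was at 9.42, 9.51 and 11.07 in Fancc-/- and 9.56, 10.23 and 10.21 in wild type, a difference of -0.0003 (limma adjusted p = 1.000). In the other groups it differed by -0.31 (Fancg-/-) and -0.44 (double knockout), with limma adjusted p = 0.961 and 0.582. Fancc-/- replicate 3, the high array for both, also had the highest Mt2 of its group (11.57). Replicate 1, with the lowest Fkbp5 and Tsc22d3 of the group, had Mt2 at 11.44. For Mt1, replicate 3 was highest on the brighter probe set, and replicate 1 on the dimmer one (7.28 against 6.66 in replicate 3). Without replicate 3 the differences in Fancc-/- were 2.57 for Mt2 and 1.19 for Mt1 on the brighter probe set. A link of Mt2 or Mt1 to glucocorticoids was not tested.

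Of 11 interleukin 6 and STAT3 response genes, 0 passed in Fancc-/- and Fancg-/- (2 and 0 at an unadjusted p below 0.05 by limma) and 1 fell in the double knockout (2 at an unadjusted p below 0.05), where 3.01% of all genes fell. It was Junb, a subunit of the AP-1 transcription factor (-1.26 ± 0.32, limma adjusted p = 0.0454), called in 2 of 12 fits that left out 1 array. Junb was at 10.60, 9.12 and 9.31 in the double knockout and 10.50, 11.29 and 11.04 in wild type, so replicate 1 was inside the wild-type range. Socs3, a direct STAT3 target, differed from wild type by 0.12 (Fancc-/-), 0.52 (Fancg-/-) and -0.05 (double knockout; adjusted p = 0.905, 0.919 and 0.964). Saa3, of the same list, differed by 1.36 (Fancc-/-), 0.21 (Fancg-/-) and 1.34 (double knockout), with limma adjusted p = 0.441, 0.989 and 0.413. It was at 6.43, 6.25 and 10.74 in Fancc-/-, 7.95, 8.50 and 6.92 in the double knockout, and 6.25, 6.47 and 6.63 in wild type. The median difference over the 11 genes was -0.01 (Fancc-/-), 0.04 (Fancg-/-) and -0.04 (double knockout). Of 12 hypoxia genes, 0 passed in any group against wild type (2, 0 and 4 at an unadjusted p below 0.05 by limma, in the same order), with the glucose transporter Slc2a1 at 0.45 (Fancc-/-), 0.52 (Fancg-/-) and 1.07 (double knockout), adjusted p = 0.416, 0.811 and 0.0523.

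Markers of the cell types of whole marrow also differed between the groups. Of 9 erythroid markers measured, 6 rose in Fancc-/- and 1 in the double knockout, where 2.18% and 2.27% of all genes rose, and 0 passed in Fancg-/- (7 at an unadjusted p below 0.05 by limma). Their mean log2 signal per array was 11.03 to 11.54 in Fancc-/-, 10.67 to 10.84 in Fancg-/-, 10.42 to 11.33 in the double knockout and 9.96 to 10.35 in wild type. Of 9 B cell markers, 8 fell in Fancc-/- and 8 in the double knockout, where 2.36% and 3.01% of all genes fell, and 0 passed in Fancg-/- (9 at an unadjusted p below 0.05 by limma). Their means were 5.47 to 5.85 in Fancc-/-, 6.06 to 7.97 in Fancg-/-, 5.94 to 6.04 in the double knockout and 8.24 to 8.78 in wild type. Stroma, bone and vessel markers overlapped between the groups, at 5.31 to 5.94, 5.61 to 6.86, 4.70 to 6.01 and 4.98 to 5.75 in the same order, and 0 of 6 tested passed in any of the 3 groups by limma (0, 3 and 0 at an unadjusted p below 0.05).

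Neutrophil markers lay at 12.82 to 13.10 in Fancc-/-, 12.96 to 13.19 in Fancg-/-, 12.69 to 12.94 in the double knockout and 13.04 to 13.15 in wild type, with Elane and Mpo lower in the double knockout (2 of 9 fell, where 3.01% of all genes did) and 0 past the test in the single knockouts (2 in Fancc-/- and 0 in Fancg-/- at an unadjusted p below 0.05 by limma). Monocyte and macrophage markers, as means over 9 measured genes, lay at 7.84 to 8.02, 7.90 to 8.29, 7.54 to 7.65 and 7.69 to 8.11 in that order. Of these, 0 of 8 tested were past the test (5, 1 and 1 at an unadjusted p below 0.05 by limma). The 5 in Fancc-/- went in both directions, with differences from -0.87 to 1.38, which the mean hides. Group means of Mt2 and of the erythroid markers were both higher in every knockout than in wild type. Inside the groups the order of the mice varied. Fancc-/- replicate 3 had the highest Mt2 and the lowest erythroid mean (11.03) of its group. Fancg-/- replicate 2 had the highest of both (9.38 and 10.84), with replicate 1 nearly level in the erythroid mean. Wild-type replicate 1 had the lowest Mt2 (7.92) and the highest erythroid mean (10.35). Double-knockout replicate 1 had an erythroid mean of 11.33 against 10.42 and 10.60 in replicates 2 and 3, and Mt2 at 10.83 against 10.74 and 10.97. An order of 3 mice cannot decide how the 2 are related between groups. The part of these markers in the metallothionein differences was not tested.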

How the data were processed

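Bone marrow RNA of 12 mice was measured on Affymetrix mouse arrays. The table deposited for each array holds 1 log2 signal for every probe set. The method, RMA, corrects background, quantile-normalizes and summarizes probes; RMA and Partek are named per the submitters' processing notes, without versions. RNA input was 2 µg, and 0.91 µg for Fancg-/- replicate 3, per the labels' protocols. An array gives no counts, and the 3 arrays per group limit precision.

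Of 45101 probe sets, 34945 had exactly 1 gene symbol, 932 had several and 9160 none. For each of 18193 genes the brightest probe set over all arrays stood for the gene, which was tested if above the array median on at least 3 arrays, which left 11908 genes and all 5 members. The test was limma (version 3.58.1, R version 4.3.3), as 1 model over 12 arrays with 4 group means and a variance trend, 2-sided, with Benjamini-Hochberg adjustment over all genes tested of a contrast and calls at an adjusted p below 0.05. The fit was tested on simulated data. Differences carry a standard error (SE) from this model, and levels the standard deviation (SD) of 3 mice. A count without overlap means that all 3 arrays of a group lay on 1 side of all 3 of the other. Whether mice of a group shared a litter or batch is not given in the sources used here.

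Members and lists were chosen with earlier results of these data known. Named are the members, up to 4 genes past the test per list and direction in each contrast with wild type, the gene of smallest p of a transport list where none passed, and the 5 genes most like Mt2 by each measure, with predicted genes passed over. Alternatives covered the filter, the probe set of a gene, scaling, the variance model, weights per array, leaving the other groups out of the fit, a block for the replicate number, a covariate for Xist, and each array left out. Fkbp5, Tsc22d3, Socs3, Saa3, Slc2a1, Hmox1, Hspa1a and Hspa1b were picked after their values were seen, as were the single-knockout values of Klf9. For the marker lists, only Elane and Mpo are named.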

Additional observations from a re-analysis of the deposited data

How the results depend on the processing

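Mt2 stayed higher than wild type in all 3 knockout groups under every alternative run, with differences of 2.54 to 3.23 (Fancc-/-), 0.90 to 1.22 (Fancg-/-) and 2.40 to 2.73 (double knockout). The differences in Fancc-/- and in the double knockout are the values that chose Mt2, so their stability is no independent support. Mt1 in the double knockout was 0.92 with probe sets averaged and 0.82 with Xist as a covariate, against 1.44. Slc30a1 in the double knockout ranged from 0.63 to 1.25. Mtf1 changed sign when its probe sets were averaged, to -0.014 against wild type, -0.0599 against Fancc-/- and -0.0563 against Fancg-/- in the double knockout, and its probe sets disagree as described. The number of the 5 genes called in Fancg-/- against wild type was 0, but 1 (Mt2) with array weights and with only the groups compared, and 0 to 1 with each array left out. The count of 30 transport genes called in Fancc-/- was 1, but 0 with no filter, with the stricter filter, with every probe set on its own, with no variance trend, with no moderation, with only the groups compared and with Xist as a covariate, 2 with array weights, and 0 to 2 with each array left out. In Fancg-/- it was 0, and 1 with array weights. In the double knockout against wild type it was 0, but 1 with probe sets averaged, with every probe set on its own and with only the groups compared, 8 with array weights, and 0 to 4 with each array left out. Against Fancc-/- and Fancg-/- it was 0, but 4 and 6 with array weights and 0 to 3 in both with each array left out. Replicate numbers did not pair the arrays (same-numbered deviations correlated at -0.365 to 0.195, over 0.1 for 6 of 18 pairs, and 3 of 12 arrays were closest to their own number); with the replicate block the double-knockout transport count was 1, and Mt2 in Fancg-/- had a limma adjusted p = 0.321.

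Counts over all genes moved more. The 540 genes called in Fancc-/- were 247 with only the groups compared, 250 without moderation and 170 to 714 with each array left out, with 365 rises and 252 falls after quantile normalization against 259 and 281. The 6 in Fancg-/- were 277 with array weights, 72 with only the groups compared, 10 with probe sets averaged, 2 with the stricter filter or without moderation, 0 with Xist as a covariate, and 0 to 31 with each array left out. The 629 in the double knockout were 3382 with array weights, 39 without moderation, 0 with Xist as a covariate and 14 to 1849 with each array left out. Xist separates the double knockout from wild type without overlap, so the fit with this covariate decides little there. The double knockout against Fancc-/- and Fancg-/- gave 1 and 0, but 1727 and 2250 with array weights. The number of arrays limits every comparison, and no alternative gave a detection call for dim probe sets such as Mt3.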
